A study of Mus musculus with 4 samples.

Results

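Solute carriers are the largest family of membrane transporters, and they carry sugars, amino acids, ions, metals, nucleotides and metabolites across the plasma membrane and the membranes of organelles. The solute carrier genes described here are all rows of a deposited table of m6A regions whose gene symbol begins with Slc and a number, with each region used once per gene. The rule found 78 regions under 59 genes, of 6697 distinct regions under 3882 genes in all. It uses the symbol only and no measured value. It leaves out transporters of other names, and it takes in Slc2a4rg-ps, a pseudogene named after a regulator of Slc2a4 and not itself a carrier.

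The study compared m6A-modified mRNA between mouse embryonic stem cells that were wild type and cells of the Gsk-3 DKO genotype, in which both Gsk-3 kinases are missing. m6A is a methyl mark on adenosine inside mRNA that acts in splicing, decay and translation, and it is often found near stop codons and in long exons. Both groups were E14K cells grown without feeders and without LIF, the cytokine that sustains self-renewal, for 14 days. Each genotype had 1 library of RNA captured with an m6A antibody and 1 of input mRNA, and the labels do not say whether a genotype was 1 clone. Counts named after the genotypes were taken as those of the captured libraries, and input was not analysed here.

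Solute carriers bear on what an embryonic stem cell can take up and release. Glucose enters mainly through facilitative carriers of the Slc2 family, lactate leaves through Slc16 carriers, and amino acids that activate mTORC1 enter through Slc7 and Slc38 carriers. Gsk-3 is a kinase restrained by insulin and Wnt signals, which also act on nutrient uptake.

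Each region carries 1 count per genotype, and no replicate stands behind any value, so no test between the genotypes was possible and every difference is one between 2 libraries. Folds divide wild-type by double-knockout counts after the authors' constant of 0.825. A double-knockout count of 0 gives only a lower bound, computed from a floor of 3 counts in that library. That bound takes the wild-type count as exact, and the exact 95% interval of such a fold begins below it. Ranges in brackets after counts, folds and shares are exact 95% intervals, which cover counting error only. The whole table holds 0 regions in which the double knockout reached the wild-type count, so the direction is set by the list. All its regions had at least 15 wild-type reads, and the smallest fold among those with double-knockout reads was 2.91. The list may therefore also limit the sizes and shares given below. A lower count can come from less methylation, less of the transcript or fewer cells of a type. With 1 captured library per genotype and no library totals, differences in depth or antibody capture are possible too. All of these cannot be told apart here. Gsk3a had no region analysed here, and the only region of Gsk3b (78 against 3 reads) lay upstream of the gene, at -3769 bases from its start, which checks nothing about the deletion. The pluripotency factor gene Pou5f1 had 55 reads against 6, while Nanog and Sox2 had no region analysed here.

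The solute carrier regions as a whole resembled the rest of the table. Their wild-type counts ran from 15 to 428 with a median of 36.5 (43 over all regions), and their double-knockout counts from 0 to 59. They summed to 5094 reads in wild type and 223 in the double knockout, which was 0.888% and 0.824% of the reads of all listed regions. On a log2 scale with a pseudocount of 0.5, double knockout relative to wild type had a median of -4.88 (quartiles -5.64 and -3.71), against -4.93 for all distinct regions. The median fold, taking each count of 0 at its bound, was 11.1, against 10.4 in all regions.

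In the double knockout 42 of the 78 regions had no reads, which is 53.8% (exact binomial interval 42.2 to 65.2) against a background of 50.5% of all distinct regions. At least 10-fold lower were 43 regions (55.1%, 43.4 to 66.4), against 52.5%. Both shares lay near the background. The 10-fold call depends on depth where the double-knockout count is 0, since the bound was 9.90 at 36 wild-type reads and 10.2 at 37. Shallower regions at 0 could not be called, so a region left uncalled is not thereby shown to be less reduced. At a floor of 1 count 93.6% of the regions were called. In the 36 regions that kept double-knockout reads, folds spanned 5.98 to 72.6 and their median was 15.5, where the whole table gave 13.6. Counts of 1 to 3 made up 22 of these 36, and 1667 of 3315 such regions in the whole table, so single folds are loosely known.

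**Figure D1:**
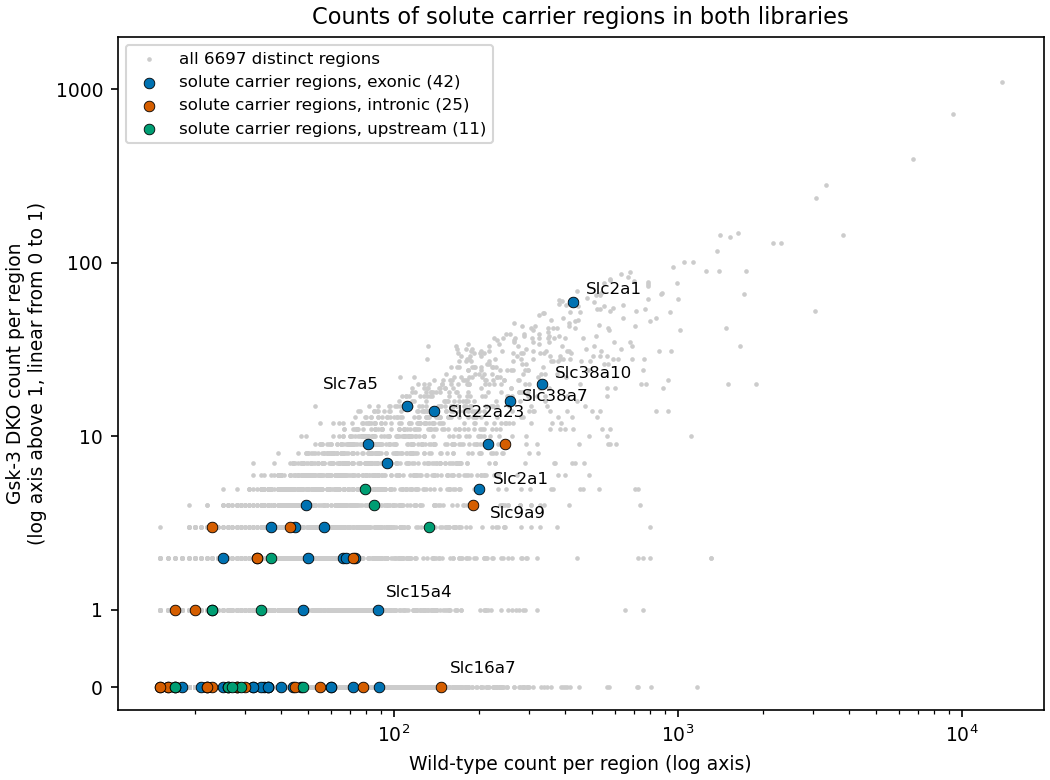
Wild-type count (x axis, log) against double-knockout count (y axis, logarithmic above 1 and linear from 0 to 1) of each region. Grey points are all 6697 distinct regions and coloured points the 78 solute carrier regions by position, which spread through the grey cloud, with Slc2a1 highest at 428 against 59 and Slc16a7 the deepest member at 0, with 147 reads.

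Whether a region had double-knockout reads followed its read number. Of the 9 solute carrier regions with 15 to 19 wild-type reads 8 had none, of the 22 with 30 to 49 reads 13 had none, and of the 5 with 200 or more reads 0 had none. All regions gave 84.3%, 54.2% and 11.4% in the same ranges. Weighted to the read numbers of the solute carriers, the share over all regions was 53.4%, next to the 53.8% of the carriers.

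**Figure D2:**
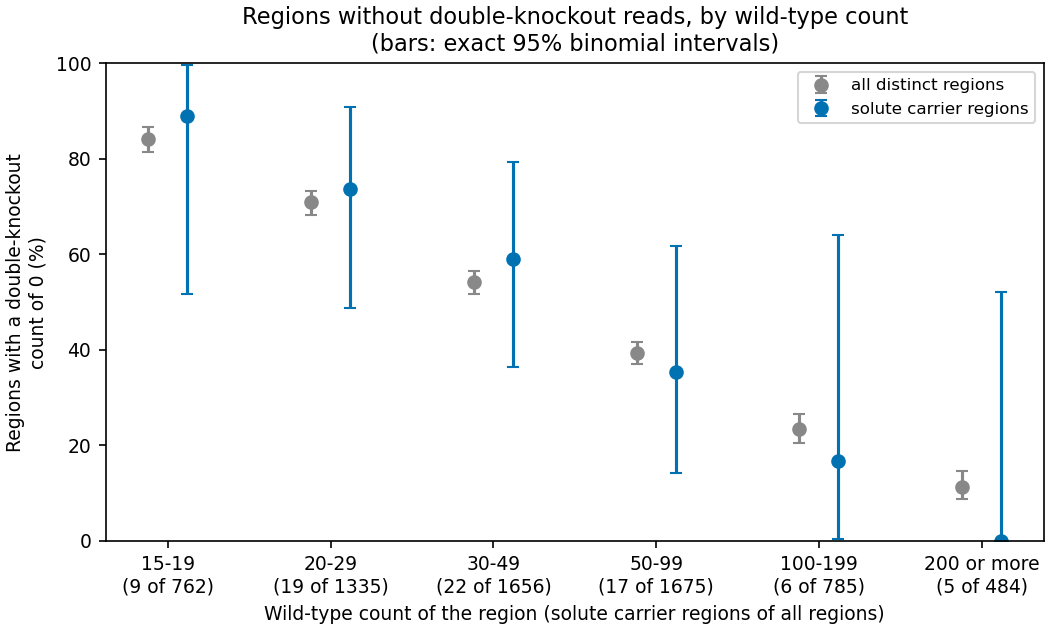
Share of regions with a double-knockout count of 0 (y axis, percent) in 6 ranges of wild-type count (x axis), for solute carriers (blue) and all distinct regions (grey), with exact 95% binomial intervals. Both fall from over 80% at 15 to 19 reads, and the interval of the solute carriers holds the value of all regions in every range.

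Of 375 protein-coding genes with such symbols in the RefSeq list, 58 were members (15.5%), against 15.8% of all protein-coding genes. The monocarboxylate family Slc16 had 6 of 14 genes listed (42.9%, 17.7 to 71.1) and the amino acid family Slc38 had 5 of 11 (45.5%, 16.7 to 76.6). The bicarbonate family Slc4 had 4 of 11 (10.9 to 69.2%) and the Golgi nucleotide-sugar family Slc35 had 7 of 27 (11.1 to 46.3%). The organic ion family Slc22 had 1 of 25 (0.10 to 20.4%), the neurotransmitter family Slc6 1 of 21 (0.12 to 23.8%) and the zinc exporters Slc30 0 of 10 (up to 30.8%). These families were picked from 51 after their counts were seen, the intervals of all but Slc16 and Slc38 hold 15.8%, and differences between families were not tested. Reads must be present for a gene to be listed, so these counts mix expression with methylation. Those reads need not come from the carrier, since 7 listed genes had regions only where an exon of another gene also lay.

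By position, 42 of the 78 regions (53.8%) overlapped a coding exon or UTR of the carrier, where all gene-region pairs of the table gave 60.8%. All pairs include ones in non-coding transcripts, a label that no solute carrier region had, so the sets are not quite alike. Without those pairs every position share of all pairs would be larger. Whether an interval leaves out such a share was therefore not read as a difference. Introns alone held 25 (32.1%, 21.9 to 43.6, against 20.6%), and 11 (14.1%) lay upstream, against 12.7%. A 3'UTR was touched by 18 regions (23.1%, 14.3 to 34.0, against 15.2%) and both coding sequence and 3'UTR, around the stop codon, by 9 (11.5%, 5.41 to 20.8, against 4.98%). Coding exons were overlapped by 29 (37.2%, 26.5 to 48.9, against 47.0%). Regions of a gene are not independent, and these intervals treat them as if they were. Double-knockout reads were absent from 20 of the 42 exonic regions (47.6%, 32.0 to 63.6, against 36.1% of all exonic pairs) and from 17 of the 25 intronic ones (68.0%, 46.5 to 85.1, against 67.8%). Intronic members were also shallower, with a median of 26 wild-type reads against 47.5 in exonic ones. A total of 26 of the 59 genes had no region in an exon of their own.

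Some regions carry the name of a solute carrier but lie in another gene. The authors' rows place 9 of the 78 regions in an exon or UTR of a neighbour as well, 6 of them annotated as upstream of the carrier. These were Slc35a5 with Atg3, Slc35e1 with Med26, Slc27a3 with Ints3, Slc26a8 with Mapk14, Slc44a4 with Ehmt2 and 1 of the pair of regions of Slc2a4rg-ps with Lime1. Both regions of Slc5a10 also lay in exons of Fam83g, and that of Slc16a6 in a 5'UTR of LOC100503496. For 7 genes, all of these but Slc2a4rg-ps, no other region was listed. The table gives no strand, so the transcript behind these reads cannot be told apart. Without the 9 regions the share with no double-knockout reads was 56.5%.

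Sugar carriers held the deepest member. Slc2a1 encodes GLUT1, the main glucose carrier of many proliferating cells, and its 4 regions on chromosome 4 summed to 668 reads against 67. That was 13.1% of all solute carrier reads in wild type and 30.04% of those in the double knockout. In the region over the end of the coding sequence and the 3'UTR (119136238 to 119136578), wild type had 428 reads (388 to 471) and the double knockout 59 (44.9 to 76.1), a 5.98-fold difference (4.55 to 7.99). This was the smallest fold of any solute carrier region with double-knockout reads, and only 5.58% of the 484 regions with 200 or more wild-type reads had a smaller log2 difference.

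A second region of Slc2a1 lay 139 bases further along, wholly in the 3'UTR (119136718 to 119137062), with 199 reads (172 to 229) against 5 (1.62 to 11.7), or 32.8-fold (13.8 to 102). The neighbouring regions of 1 transcript therefore differed 5.48 times in their fold (2.17 to 17.8, exact conditional interval on the 4 counts). Over the 26 pairs of regions compared within 12 genes, it was the only pair whose interval left out 1, and it still did when widened for 26 pairs (1.45 to 39.8). The interval covers counting error only. The table also lists the second region under the transcript Gm19660. The remaining regions of Slc2a1, in an intron and at an exon border, had 23 against 3 and 18 against 0.

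The other sugar carriers were far shallower. Slc5a9, a sodium-coupled sugar carrier, had 48 against 0 in an upstream region, which bounds its fold at 13.2. Slc5a10, of the same family, had 43 against 3 (11.8-fold, 3.78 to 59.6) and 28 against 0, both in its introns and in exons of Fam83g. Slc45a3 had 32 against 0 at the start of its coding sequence, and Slc2a9, a urate carrier, 20 against 1 in an intron. Slc2a3, which encodes the neuronal glucose carrier GLUT3, had no region analysed here.

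Amino acid carriers formed the largest class, with 10 genes and 17 regions. Their median log2 value per gene was -4.63, against -4.85 for all genes of the table, and 5 of the 10 had no double-knockout reads in the region used, where 46.2% of all genes had none. A gene is represented by its region of highest mean count. Values within the class reached from -7.02 to -2.57, so it held carriers at both ends.

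Slc7a5, whose product LAT1 imports leucine and other large neutral amino acids, stood beside Slc2a1 at the small end. Its 3'UTR on chromosome 8 (121882736 to 121882915) had 111 reads (91.3 to 134) against 15 (8.40 to 24.7), or 6.10-fold (3.55 to 11.3). Only 5.86% of the 785 regions with 100 to 199 wild-type reads had a smaller log2 difference. Near its start (121906972 to 121907322) it had 95 against 7, or 11.2-fold (5.23 to 28.6), and in an intron 23 against 0. The exonic regions differed 1.83 times in their fold, with an interval of 0.67 to 5.54 that holds 1. Slc3a2, the partner chain of LAT1, had no region analysed here, and neither had the glutamine carrier gene Slc1a5 or the cystine carrier gene Slc7a11.

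The Slc38 carriers move glutamine and other small neutral amino acids. Slc38a10 had 333 reads (298 to 371) against 20 (12.2 to 30.9) inside coding sequence (chromosome 11, 120105702 to 120105901), a 13.7-fold difference (8.75 to 22.8). At 1.665 wild-type reads per base this was the densest solute carrier region and the 123rd of all 6697. Its other regions, at exon borders, had 60 against 0 and 50 against 2. Slc38a7, a lysosomal glutamine exporter, gave almost the same fold at its stop codon region on chromosome 8 (95837076 to 95837648), with 256 against 16 (13.2-fold, 7.97 to 23.4). An intronic region of Slc38a7 had 33 against 2 (13.6-fold, 3.48 to 117).

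Slc38a1 and Slc38a2 encode the related carriers SNAT1 and SNAT2, and both lie on chromosome 15. Slc38a1 had 49 against 4 in its 3'UTR (10.1-fold, 3.70 to 38.6), 45 against 0 in an intron and 34 against 1 upstream. Slc38a2, in its coding end and 3'UTR (96689995 to 96690223), had 60 against 0, which bounds its fold at 16.5 (exact interval from 13.0). The interval of the 3'UTR region of Slc38a1 reaches past that bound, so a difference between the carriers is not shown. Slc38a11 was the shallowest, with 15 against 0.

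Other amino acid carriers had 2 double-knockout reads or none. Slc1a2, the main glutamate carrier of astrocytes, had an intronic region (chromosome 2, 102756217 to 102756412) with 78 against 0. Its fold is bounded at 21.4 (exact interval from 17.0). Slc7a7, a cationic and neutral amino acid exchanger, had 72 against 2 in an intron (29.7-fold, 7.93 to 249.9). Its relatives Slc7a8 and Slc7a1, the latter the arginine carrier CAT1, had 32 and 28 against 0, which bounds their folds at 8.80 and 7.70.

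Slc6a9 encodes the glycine carrier GlyT1 and was the only listed member of the neurotransmitter family. It had 81 against 9 at its stop codon region on chromosome 4 (117868062 to 117868380), or 7.42-fold (3.72 to 16.8), a small fold for its read number. In its range of 50 to 99 wild-type reads 11.8% of 1675 regions had a smaller log2 difference. Slc17a6, the vesicular glutamate carrier VGLUT2 of neurons, had 17 against 1 in an intron.

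Monocarboxylate carriers export or import lactate, pyruvate and ketone bodies, and 6 of their 7 regions had no double-knockout reads, against 50.5% of all regions. Slc16a7, which encodes the high-affinity carrier MCT2, had 147 reads (124 to 173) against 0 in an intronic region (chromosome 10, 125279560 to 125279829). Its bound was 40.4-fold, and the exact interval of the fold began at 32.5. Slc16a1, encoding MCT1, had 45 against 3 in a coding exon (12.4-fold, 3.97 to 62.2) and 35 against 0 in the 3'UTR. Slc16a3, encoding the lactate exporter MCT4, had 21 against 0, Slc16a6 36, Slc16a13 22 and Slc16a11 17, each against 0. At such read numbers a count of 0 is common: the median log2 value of the class, -5.18, came from genes whose wild-type counts were mostly under 50. Bsg and Emb, the chaperones that bring these carriers to the surface, had no region analysed here.

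Carriers of nucleotide sugars supply the glycosylation reactions of the Golgi. The class was set by the family number Slc35, so its name does not give the substrate of each member. Of its 7 listed genes 2 had no double-knockout reads in the region used, against 46.2% of all genes. Slc35e2, an orphan member, had 247 reads (217 to 280) against 9 (4.12 to 17.1) in an intron on chromosome 4 (155616270 to 155616458), 22.6-fold (11.7 to 50.1). That region is also listed under the RNA gene Gm16023. Slc35e4 had 215 against 9 (19.7-fold, 10.2 to 43.7) over coding exon and 5'UTR on chromosome 11 (3912805 to 3913486), with 68 against 2 and 47 against 0 in its other regions. These deep members thus had folds above the median of 15.5 for members with double-knockout reads. Slc35a5 had 133 against 3 (36.6-fold, 12.2 to 179.6) and Slc35e1 85 against 4 (17.5-fold), both upstream of the carrier and in an exon of the neighbour. Slc35a4 had 66 against 2 in its coding exon (27.2-fold, 7.24 to 229). Slc35b2, the carrier of the sulfate donor PAPS, had 40 against 0, and Slc35b4 17 against 0.

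**Figure D3:**
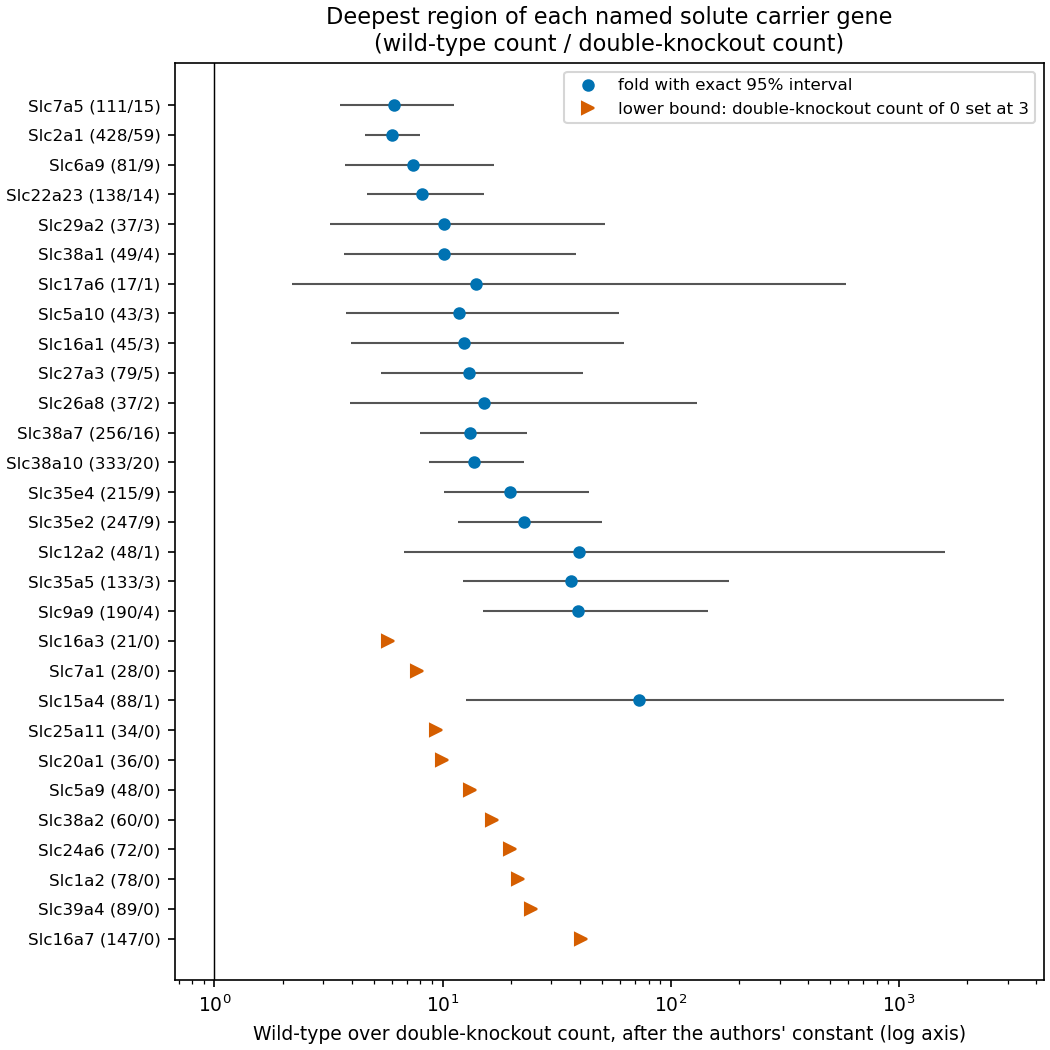
Wild-type over double-knockout count after the authors' constant (x axis, log) for the region of highest mean count in each of 29 named genes (y axis, both counts in brackets), ordered by the log2 value with a pseudocount. Bars are exact 95% intervals and triangles lower bounds; Slc2a1 and Slc7a5 stand at the small end at 5.98 and 6.10, and the highest bound, 40.4, belongs to Slc16a7.

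The exchangers of sodium, protons and calcium had 3 listed genes, too few to describe as a class. Slc9a9, an endosomal sodium-proton exchanger, had 190 reads (164 to 219) against 4 (1.09 to 10.2) in an intron on chromosome 9 (94750834 to 94751016), 39.2-fold (15.1 to 145). Further introns of it had 55 and 16 against 0. Slc24a6 (Slc8b1), the mitochondrial sodium-calcium exchanger, had 72 against 0 at an exon border, which bounds its fold at 19.8 (exact interval from 15.7). Slc8a1, the plasma membrane exchanger of heart and brain, had 17 against 0 in an intron.

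Of the bicarbonate and anion carriers, Slc4a4, Slc4a8, Slc4a5 and Slc4a7 had 26, 26, 22 and 15 against 0. All but Slc4a7 lay in introns, and at this depth their bounds stayed between 4.12-fold and 7.15-fold. Slc26a8 had 37 against 2, upstream of its own start and in an exon of Mapk14. Of the carriers that couple cations to chloride, Slc12a2, encoding NKCC1, had 48 against 1 in its 5'UTR (39.6-fold, 6.77 to 1596), and Slc12a8 had 28 against 0 in an intron.

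Zinc importers of the Slc39 family had 3 of 4 genes without double-knockout reads, where all genes gave 46.2%, and 4 genes are too few to set against that share. Slc39a4, the intestinal zinc importer ZIP4, had 89 against 0 over its start (chromosome 15, 76616551 to 76616779). Its bound was 24.5-fold, with an exact interval from 19.5. Slc39a3 had 73 against 2 in its 3'UTR (30.1-fold, 8.04 to 253). Slc39a14, which also carries iron and manganese, had 44 against 0, and Slc39a10 36 against 0. The phosphate carriers Slc20a1 and Slc20a2, both also known as receptors of retroviruses, had 36 against 0 and 25 against 2.

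Mitochondrial carriers of the Slc25 family were shallow throughout, with 16 to 34 wild-type reads. Slc25a11, the oxoglutarate carrier, had 34 against 0 and Slc25a4, the ADP/ATP carrier ANT1, 33 against 2 (13.6-fold, 3.48 to 117). Slc25a44, a carrier of branched-chain amino acids, had 30 against 0 in an intron, and the iron carrier gene Slc25a28 23 against 1. Slc25a26 imports S-adenosylmethionine, the methyl donor also used for m6A, and had 16 against 0 in an intron. No member of this family had enough reads to place its fold within less than an order of magnitude.

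Among the remaining carriers, Slc22a23, an orphan of the organic ion family, had a small fold. It had 138 reads against 14 near its start on chromosome 13 (34344084 to 34344519), 8.13-fold (4.68 to 15.3), and 57 against 3 at its stop codon region (15.7-fold, 5.10 to 78.2). Slc15a4, a lysosomal carrier of histidine and peptides, stood opposite, with 88 against 1 over coding end and 3'UTR on chromosome 5 (127596502 to 127596913), 72.6-fold (12.7 to 2899). Its interval does not overlap that of the deepest region of Slc2a1, but that pair was picked after the values were seen.

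The smaller classes added few reads. Slc27a3, an acyl-CoA synthetase of the fatty acid carrier family, had 79 against 5 upstream of its start, in an exon of Ints3, and the nucleoside carrier gene Slc29a2 37 against 3 in its 3'UTR. The choline carrier-like genes Slc44a2 and Slc44a4 had 25 and 27 against 0. The pseudogene Slc2a4rg-ps had 26 against 0 and 23 against 1.

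Of the 59 genes, 12 had more than 1 region. In 10 of these 12 a region without double-knockout reads stood beside one with them, the exceptions being Slc22a23 and Slc38a7, and genes with all regions at 0 numbered 0. In 9 of these 10, all but Slc2a4rg-ps, the region with the most wild-type reads kept some in the double knockout, as in Slc9a9 (190 against 4 beside 55 against 0). The same counts over all genes of the table are not given here, and 50.5% of all regions had no double-knockout reads. Such mixtures are therefore not shown to be particular to solute carriers. Apart from the pair in Slc2a1, the intervals of all ratios of folds held 1.

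**Figure D4:**
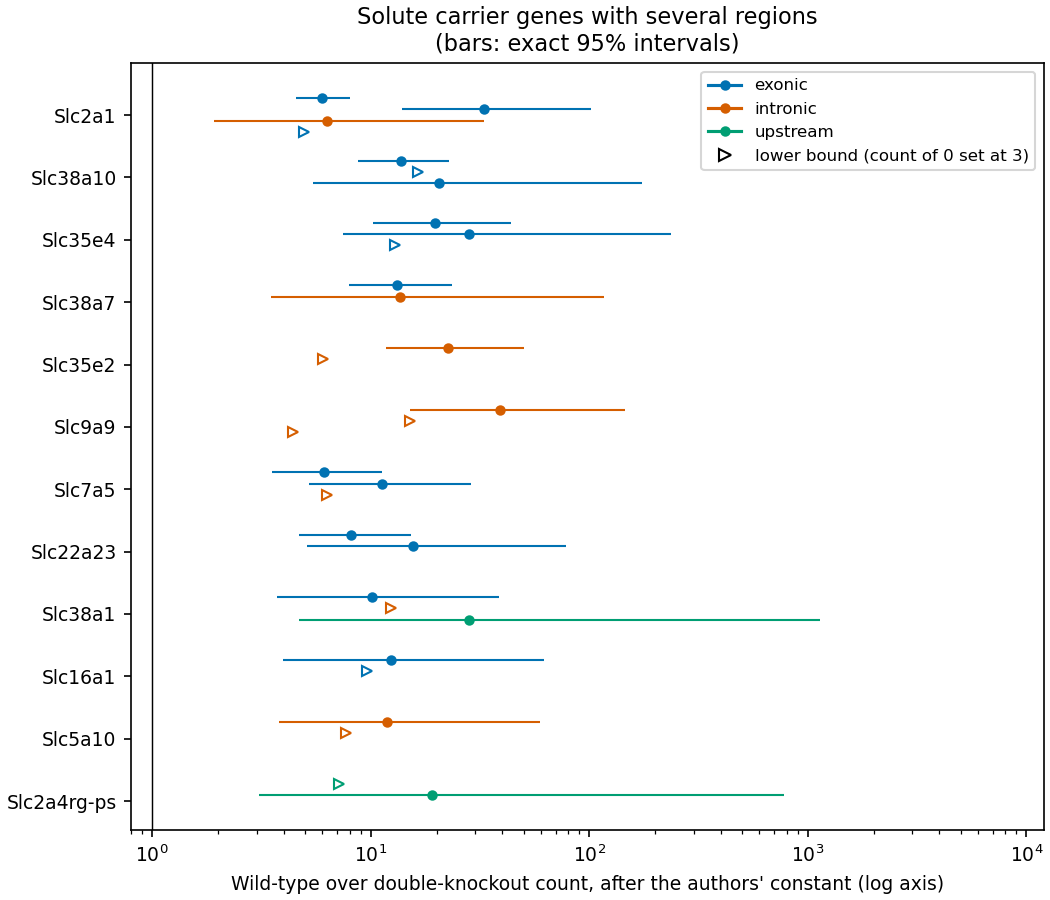
Wild-type over double-knockout count after the authors' constant (x axis, log) for every region of the 12 genes with more than 1 region (y axis), coloured by position, with exact 95% intervals and open triangles for lower bounds. The bars of the coding-end and 3'UTR regions of Slc2a1, at 5.98 and 32.8, do not overlap. Regions at a lower bound have no bar, and in the other genes with more than 1 bar the bars overlap.

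Transporters outside the solute carrier symbols were also counted. A list of organic anion carriers (Slco), ABC transporters, sodium and calcium pumps and aquaporins matched 13 genes with 19 regions, 9 of them without double-knockout reads and 11 at least 10-fold lower, beside 50.5% and 52.5% of all regions. Their median log2 was -5.08, against -4.93, so nothing sets this list apart from the table. The calcium pump gene Atp2a2 had 96 against 10 (7.92-fold, 4.12 to 17.0). Slco2a1, the prostaglandin carrier, had 114 against 2 (47.0-fold, 12.7 to 393) in its 3'UTR. Abca13 had 226 against 0, which bounds its fold at 62.1 (exact interval from 50.1). Folds under 10 and counts of 0 thus occurred side by side among transporters of other names too.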

How the data were processed

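The deposited table holds whole-number counts per region for wild type and Gsk-3 DKO. Bowtie2, DESeq and mm9 are named in the submitters' processing notes without role, and the peak caller is not given in the sources used here. The deposited ratio (enrichment factor) is the wild-type over the double-knockout count times 0.825, and the deposited signal (read density) is the wild-type count per base. Column headers give only the genotype, so their match to the captured libraries is an assumption, and counts of input are possible.

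For 39 of 55 solute carrier regions the deposited distance to the transcription start equals that to a RefSeq start in GRCm38.p6 within 1 base, so coordinates are given as GRCm38. All 59 gene identifiers matched RefSeq, and Slc25a51 and Slc49a4, listed under older symbols, are not members.

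The log2 values use a pseudocount of 0.5 and the authors' constant. Counts have exact Poisson intervals, shares and folds Clopper-Pearson intervals, all at 95%. PCR copies are not separate molecules. The table gives no library totals, so depth is known only per region. Named genes were the 12 deepest, the 8 at each end of the log2 value with a mean count of 22.5 (the table's median) or more, those with 3 or more regions, 11 listed nutrient carriers and the deepest of each class; other members follow for completeness, and some results are not reported here. Members, classes and lists were chosen with earlier results of these data known. Calculations were tested on simulated data (Python 3.11.15, SciPy 1.17.1). Alternatives covered pseudocount, floor, constant, filters and the region used.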

Additional observations from a re-analysis of the deposited data

How the results depend on the processing

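Of 22 alternatives for the whole set of regions 12 stayed within the interval of the reported value, and of 45 for classes of 5 or more genes 40 did, though for classes of up to 7 genes the interval spans all their genes. The median log2 value (-4.88) was -5.79 and -3.55 with pseudocounts of 0.25 and 2, and -1.11 with a median-ratio factor, which shifts every value by 3.77 and would put 17 of the 59 genes above 0 by construction. Among the 35 regions whose mean count reached the median it was -4.50, with 28.6% of regions at 0 (14.6 to 46.3). At least 10-fold lower were 88.6% of them (73.3 to 96.8), and all regions there gave 30.7% and 75.2%. Among the 32 regions whose density reached the median the values were -4.54, 34.4% (18.6 to 53.2) and 84.4% (67.2 to 94.7). All regions there gave 33.2% and 75.2%. Under both filters the intervals hold the shares of all regions. A floor of 1 count put 93.6% of regions at least 10-fold lower. The anion and bicarbonate class (-5.21) was -5.49 without the authors' constant and -6.20 and -3.31 with pseudocounts of 0.25 and 2. With the latter the mitochondrial class (-4.77) was -2.89 and the monocarboxylate class (-5.18) -3.28. Pseudocount, floor and factor enter these values directly. Among regions filtered by mean count, the lowest bound at a count of 0 was 12.4, so every region at 0 there was called 10-fold lower by the rule. Other reasons for the shifts among filtered regions were not tested. Of 109 alternatives for named genes 4 left the counting interval, but genes at 0 have no lower limit and could not leave it downward. Slc2a1 (-2.57) was -3.03 with its regions summed and -3.72 as their mean, Slc38a10 (-3.75) -4.82 and Slc7a5 (-2.57) -3.75 as the mean of their regions. The median-ratio factor and leaving out regions in a neighbour's exon were chosen after seeing the data. No paired analysis was possible because each group had 1 library.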
